A study of Mus musculus with 7 samples.

Results

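The data described here are the transcript levels of 10 keratin genes in spheroid cultures of mouse pancreatic epithelium. The genes were chosen by name: 6 keratins of simple epithelia (Krt7, Krt8, Krt18, Krt19, Krt20 and Krt23) and 4 of squamous and basal epithelia (Krt13, Krt14, Krt15 and Krt17). All 10 were found among the 54446 genes of the count table, which holds 54 keratin genes in all. Wild-type C57BL/6J mice were the source of all spheroids. There were 3 libraries from untreated animals, called untreated 01 to 03, and 4 from animals that had received caerulein, called post-caerulein 01 to 04. Caerulein is an analogue of cholecystokinin that causes acute pancreatitis. Neither the age of the mice nor the time since caerulein is given in the sources used here. The growth protocol is the same text for all 7 libraries and describes a medium with epidermal growth factor, hydrocortisone, cholera toxin, bovine pituitary extract and a serum supplement. The labels do not state whether libraries of a group came from separate mice or cultures, so p-values reflect how far these libraries differ among themselves, part of which may be technical.

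Keratins are the intermediate filament proteins of epithelial cells. They assemble as obligate pairs of a type I and a type II chain, and each kind of epithelium uses its own pairs. Krt8 (type II) with Krt18 (type I) is the basic pair of simple epithelia, and in the pancreas Krt7 (type II) and Krt19 (type I) are markers of duct cells. Krt20 and Krt23 are type I keratins of gastrointestinal and other glandular epithelia. Krt14 is the type I partner of Krt5 in the basal layer of stratified epithelia, Krt15 is another basal type I keratin, Krt17 is induced in injured and basal keratinocytes, and Krt13 is a type I keratin of the upper layers of internal squamous epithelia.

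Total counts per library ranged from 34783738 to 46744497, and levels below are in CPM, that is counts divided by the library size and multiplied by 1e+06, on library sizes scaled by the trimmed mean of M-values (TMM). At these depths 3 reads, the limit that a count of 0 allows, correspond to 0.0631 to 0.0841 CPM. The libraries were not spread by group alone. Untreated 03 and post-caerulein 04 stood at 70.4 and 58.4 on the first principal component, and the other 5 lay between -67.7 and 8.06. Untreated 01 and 02 form a close pair, with a biological coefficient of variation of 8.46% between them, as do post-caerulein 02 and 03 (5.73%), against 22.0% or more for every other pair. The authors' deposited table of group differences was obtained from the counts with a block term that holds untreated 03 and post-caerulein 04 against the other 5. No label states what that block stands for. Results are therefore given without the block and with it.

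The simple keratins made up almost all of the keratin RNA in every library. The 10 genes took between 1.15% and 1.65% of all counts. The 4 squamous and basal keratins supplied at most 0.359% of the summed level per kilobase of the 10, in untreated 01, and as little as 0.0157% in post-caerulein 01. On the scale of CPM per kilobase of exon (RPKM), Krt18 was the highest, at 2457 ± 334 RPKM (SD, n = 7), and ranked 6th among all genes. Krt8 stood at 1927 ± 607 RPKM and Krt19 at 1867 ± 463 RPKM (SD, n = 7). The order of these 3 did not hold in every library: Krt18 lay above Krt8 in 6 of 7, and Krt8 above Krt19 in 5 of 7. Krt7 was next at 523 ± 84.4 RPKM (SD, n = 7), below Krt19 in 7 of 7 libraries. The last annotated exon of Krt7 holds 2800 of its 4094 exonic bases. If that exon ended where a shorter annotated transcript ends, the level would be 1363 ± 220.1 per kilobase (SD, n = 7), so the distance of Krt7 from the first 3 depends on the length used.

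Krt23 lay well below these 4, at 78.2 ± 19.7 RPKM (SD, n = 7), and under Krt7 in 7 of 7 libraries. Krt20 followed at 49.5 ± 22.2 RPKM, below Krt23 in 5 of 7 libraries. Krt13 averaged 5.82 RPKM but ran from 0.0381 to 22.1 RPKM between libraries, so its place in the order is a property of single libraries. Krt15 (0.611 ± 0.553 RPKM) and Krt17 (0.602 ± 0.224 RPKM) did not differ beyond their spread. Krt14 came last at 0.0423 ± 0.0336 RPKM (SD, n = 7) and lay below Krt17 in 7 of 7 libraries.

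**Figure D1:**
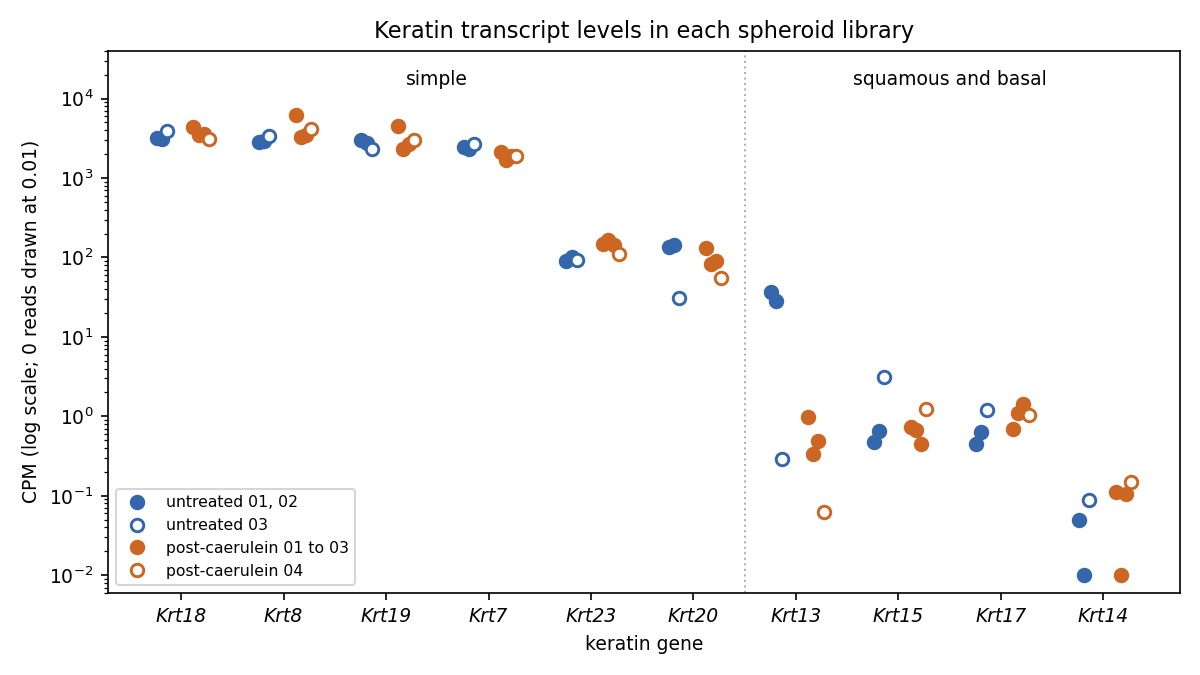
Level of each keratin in each library in CPM on a log scale; filled points are the 5 libraries of the larger block and open points are untreated 03 and post-caerulein 04. The 4 abundant simple keratins sit above 1000 CPM in all 7 libraries, whereas Krt13 splits the untreated group into 2 libraries at 36.6 and 28.6 CPM and 1 at 0.289 CPM.

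The genes lie in the 2 keratin clusters of the mouse genome (GRCm38). Krt20, Krt23, Krt13, Krt15, Krt19, Krt14 and Krt17 are on chromosome 11, all on the minus strand, between 99428403 and 100261029. Krt19 (100140810 to 100146120) lies 4.9 kilobases from Krt15 (100131758 to 100135928) with no annotated gene between them, although the 2 differ in level by about 3 orders of magnitude. Krt7 (101412402 to 101430313, plus strand) and Krt8 (101996698 to 102004482, minus strand) are in the type II cluster of chromosome 15. Krt18 (102028180 to 102032027, plus strand) is the type I keratin that lies there, 23.7 kilobases from its partner Krt8 with no annotated gene between them.

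Promoter sequences, from 250 bases before to 50 bases after the annotated start, were taken from RefSeq (GRCm38.p6), which gave a window for 7 of the 10 genes. They are shown for the partner genes Krt8 and Krt18, for Krt7 and Krt23, whose groups did not overlap, and for Krt13, the gene with the widest ratio between its highest and lowest library above 0. Capitals mark matches on either strand to 3 short motifs: TATAAA, which is a core promoter motif, GGGCGG, which is the motif of Sp-type factors, and TGANTCA, which is the motif of AP-1 factors. A match is a description of the letters in the window and not evidence of binding.
Krt8, chr15:102004293-102004592, minus strand: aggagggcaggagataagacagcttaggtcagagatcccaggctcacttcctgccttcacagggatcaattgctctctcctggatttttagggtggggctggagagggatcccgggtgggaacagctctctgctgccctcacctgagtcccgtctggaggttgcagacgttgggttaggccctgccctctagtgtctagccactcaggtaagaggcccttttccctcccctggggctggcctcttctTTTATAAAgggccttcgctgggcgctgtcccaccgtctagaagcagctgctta
Krt18, chr15:102027966-102028265, plus strand: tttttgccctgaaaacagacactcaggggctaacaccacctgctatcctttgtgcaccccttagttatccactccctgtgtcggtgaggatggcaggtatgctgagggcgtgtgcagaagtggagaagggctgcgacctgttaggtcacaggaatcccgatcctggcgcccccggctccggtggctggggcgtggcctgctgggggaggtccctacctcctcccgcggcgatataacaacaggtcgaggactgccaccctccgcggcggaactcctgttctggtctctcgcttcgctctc
Krt7, chr15:101412153-101412452, plus strand: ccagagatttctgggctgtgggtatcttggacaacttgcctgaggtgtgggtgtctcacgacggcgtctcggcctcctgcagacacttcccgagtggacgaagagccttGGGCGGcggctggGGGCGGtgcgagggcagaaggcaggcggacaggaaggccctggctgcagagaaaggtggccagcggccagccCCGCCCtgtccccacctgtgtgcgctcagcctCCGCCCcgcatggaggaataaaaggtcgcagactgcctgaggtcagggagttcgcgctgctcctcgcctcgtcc
Krt23, chr11:99493071-99493370, minus strand: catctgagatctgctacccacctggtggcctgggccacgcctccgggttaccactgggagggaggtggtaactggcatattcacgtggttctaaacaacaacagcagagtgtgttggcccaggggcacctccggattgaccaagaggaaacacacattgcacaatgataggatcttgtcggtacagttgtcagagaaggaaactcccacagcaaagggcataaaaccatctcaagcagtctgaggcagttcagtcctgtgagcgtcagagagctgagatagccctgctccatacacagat
Krt13, chr11:100121517-100121816, minus strand: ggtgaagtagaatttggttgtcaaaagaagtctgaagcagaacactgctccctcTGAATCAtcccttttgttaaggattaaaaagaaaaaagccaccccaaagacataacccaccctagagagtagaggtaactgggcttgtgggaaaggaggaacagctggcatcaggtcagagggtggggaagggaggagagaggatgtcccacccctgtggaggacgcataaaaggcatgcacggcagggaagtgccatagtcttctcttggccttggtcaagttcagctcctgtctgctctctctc

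Among all 32851 promoter windows in the RefSeq table, 13.6% hold TATAAA, 35.7% hold GGGCGG and 7.81% hold TGANTCA. The Krt8 window holds TATAAA as 2 overlapping matches, 1 on each strand, across the annotated start. Krt7 has 4 matches to GGGCGG and the highest GC content of the 5, 66.3%. The Krt13 window has 1 match to TGANTCA, beginning 196 bases before the start, and a second annotated Krt13 start has 2. The windows of Krt18 and Krt23 hold none of the 3. Of the members whose windows are not printed, Krt20 has a TATAAA beginning 29 bases before its start. The Krt14 window has no match. That window (100205981 to 100206280) lies inside the gene as counted, which runs from 100203162 to 100207548 on the minus strand. The bases before the outer end of Krt14 were not searched.

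No keratin passed the test between untreated and post-caerulein spheroids when the group was the only term. edgeR's quasi-likelihood fit called 0 of the 9 keratins that passed the filter on low counts, beside 0% of the 16438 genes tested. Krt14 was too low to be tested. At an unadjusted p under 0.05 there were 3 of the 9 (Krt7, Krt13 and Krt23), beside 9.50% of all genes. DESeq2 called 2 of the 9, Krt13 and Krt23, beside 3.10% of all genes, and limma-voom called 0, beside 0%. With the block 1 of the 9 was called, Krt13, which was lower, beside 1.53% of all genes (0.651% higher and 0.876% lower). With the block and without untreated 01 or untreated 02, edgeR called 0 genes of any kind (1677 and 1840 genes had an unadjusted p under 0.05), so every call with the block, for keratins and for the lists below, was lost in those fits. The groups did not overlap for 2 of the 9 tested, Krt23 (higher) and Krt7 (lower), beside 9.32% of all genes (4.67% higher and 4.65% lower). The median log2 difference of the 6 simple keratins was 0.15, with 4 positive and 2 negative, beside -0.02 over all genes. In bulk RNA, fewer cells that express a keratin and less of its RNA per cell cannot be told apart.

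Krt7, the type II keratin of duct cells, was lower in every post-caerulein library than in any untreated one. It counted 2447, 2287 and 2664 CPM in untreated 01 to 03, and post-caerulein 01 to 04 gave 2113, 1699.9, 1892 and 1876. The group means were 2466 ± 189 (SD, n = 3) and 1895 ± 169 CPM (SD, n = 4). The log2 difference was -0.38 ± 0.13 (SE), which did not pass (edgeR, adjusted p = 0.382), and with the block it was -0.37 ± 0.12 (edgeR, adjusted p = 0.166). For the 5 libraries of the larger block the log2 ratio of means was -0.32, and for post-caerulein 04 over untreated 03 it was -0.51. The annotated antisense gene Gm671 overlaps Krt7 in the full annotation, though not in the exons counted, and had at most 3.69 CPM in any library.

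Krt8, the type II chain of the basic simple pair, counted 2845, 2952 and 3359.7 CPM without caerulein, and 6294, 3323, 3493 and 4149 CPM after it. Post-caerulein 01 was the highest by far, and the groups overlapped because post-caerulein 02 lay just under untreated 03. On total counts without scaling they did not overlap. The log2 difference was 0.50 ± 0.24 (SE; edgeR, adjusted p = 0.592) and 0.28 ± 0.15 without post-caerulein 01. The pseudogene Krt8-ps on chromosome 7 had between 0.130% and 0.172% as many reads as Krt8 in each library. How many reads the copies share was not tested. Gm36026, a lincRNA gene on the opposite strand, overlaps the span of Krt8 by 271 bases and had at most 2.02 CPM.

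Krt18, its type I partner, counted 3169, 3108 and 3914 CPM without caerulein, and 4393, 3497, 3532 and 3106 CPM after it. The ranges overlapped nearly in full, with both the second highest level and the lowest found in the smaller block. Between the groups the log2 difference was 0.10 ± 0.17 (SE; edgeR, adjusted p = 0.938). It was 0.28 as a ratio of means for the larger block, against -0.33 for post-caerulein 04 over untreated 03.

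Krt19, the type I duct keratin, counted 3020.2, 2757 and 2349 CPM without caerulein, and 4467, 2304, 2681 and 3016 CPM after it. As for Krt8, post-caerulein 01 was the highest. Without it the sign of the Krt19 difference turned, at a size far below its SE, while that of Krt8 did not. The log2 difference was 0.20 ± 0.24 (SE; edgeR, adjusted p = 0.897) with all libraries and -0.01 ± 0.16 without that one.

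Krt23 was higher in every post-caerulein library than in any untreated one. It counted 91.4, 102 and 92.1 CPM in untreated 01 to 03, and post-caerulein 01 to 04 gave 149, 167, 145 and 110.1. Its untreated values were close together and post-caerulein 04, of the smaller block, was nearest to them. The log2 difference was 0.59 ± 0.15 (SE; edgeR, adjusted p = 0.269), and 0.55 ± 0.11 with the block (edgeR, adjusted p = 0.0671). Among the 5 libraries of the larger block it was 0.69 ± 0.10 (edgeR, adjusted p = 0.00791), which passed, as did 13.8% of all genes there. Those 5 libraries hold both close pairs, and in a fit of all libraries with each close pair summed to 1, Krt23 did not pass (edgeR, adjusted p = 1.000) and 0 genes were called. For post-caerulein 04 over untreated 03 the log2 ratio was 0.26.

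Krt20, a keratin of mature gastrointestinal epithelium, was lowest in the 2 libraries of the smaller block. It counted 136, 143 and 31.0 CPM in untreated 01 to 03, and post-caerulein 01 to 04 gave 130.0, 83.6, 89.6 and 55.4. The groups overlapped, and the untreated libraries spanned the wider range. Over all libraries the log2 difference was -0.20 ± 0.50 (SE; edgeR, adjusted p = 0.955). The ratio of means was -0.46 for the larger block and 0.84 for post-caerulein 04 over untreated 03, so the blocks had opposite signs.

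**Figure D2:**
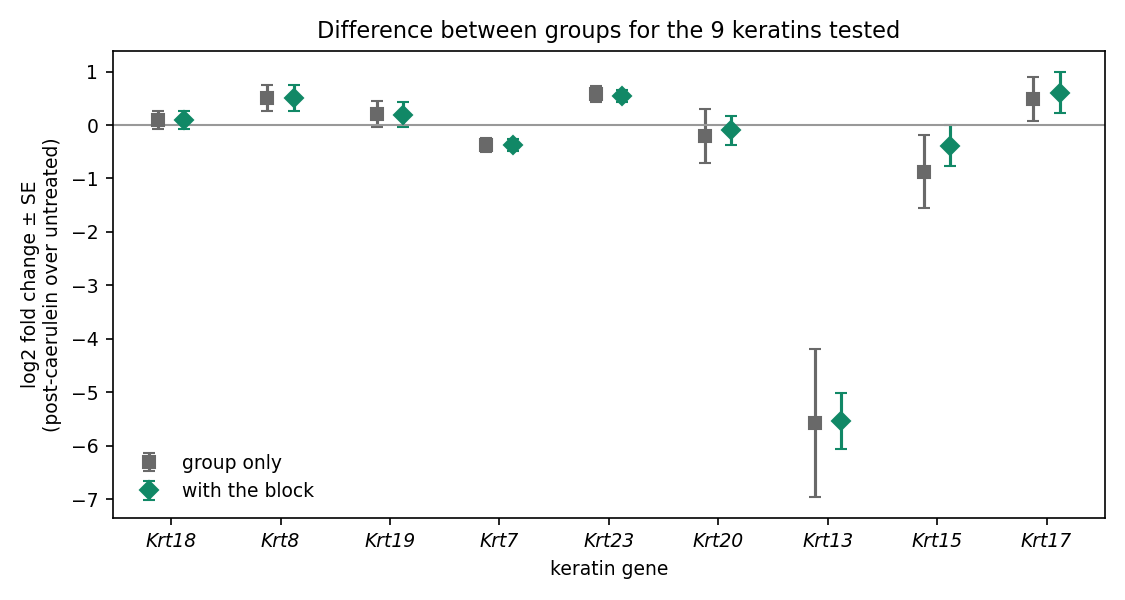
Log2 fold change with its standard error for the 9 tested keratins, from the fit with the group alone (squares) and with the block (diamonds). Krt13 lies near -5.5 in both fits with a smaller standard error in the second, and the other 8 lie between -0.88 and 0.61.

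The balance between duct keratins can be read within a library, where scaling plays no part. The ratio of Krt7 to Krt8 (RPKM) was 0.411, 0.370 and 0.379 in untreated 01 to 03 and 0.161, 0.245, 0.259 and 0.216 in post-caerulein 01 to 04. Every post-caerulein library was below every untreated one, in both blocks. The size of this ratio depends on the length used. On the shorter last exon of Krt7 it was 0.966 to 1.07 in untreated and 0.419 to 0.675 in post-caerulein libraries. The ratio of Krt8 to Krt18 was 0.659, 0.697 and 0.630 in untreated and 1.05, 0.697, 0.726 and 0.980 in post-caerulein libraries. Here post-caerulein 01 and 04 stood apart, and post-caerulein 02 was level with untreated 02. Summed over the 10 genes, type II over type I chains ran from 0.480 to 0.617. The groups overlapped in this sum. With the shorter last exon of Krt7 the range was 0.687 to 0.795. These ratios were formed after single values were known and carry no test.

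**Figure D3:**
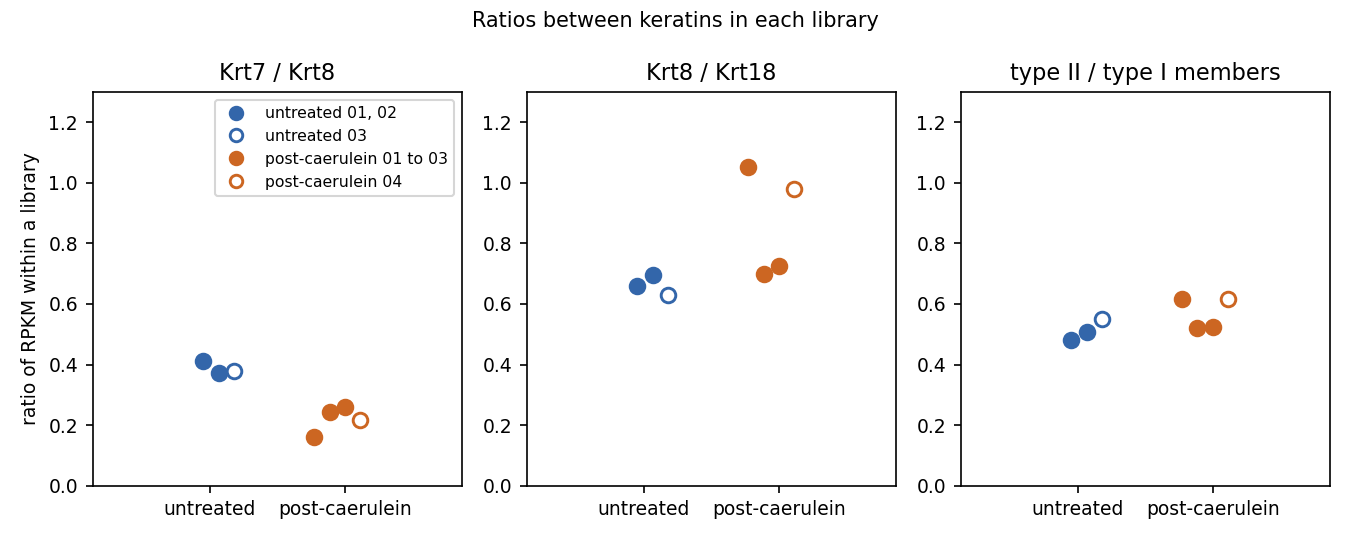
Ratio of RPKM between keratins within each library; open points are untreated 03 and post-caerulein 04. Krt7 over Krt8 lies between 0.370 and 0.411 in the untreated and between 0.161 and 0.259 in the post-caerulein libraries, whereas type II over type I overlaps between groups.

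Among the 4 squamous and basal keratins chosen, Krt13 alone exceeded 10 CPM, and in 2 libraries only. It counted 36.6, 28.6 and 0.289 CPM in untreated 01 to 03, and post-caerulein 01 to 04 gave 0.982, 0.333, 0.485 and 0.0631. The groups overlapped, because untreated 03 was below 3 of the 4 post-caerulein libraries. The log2 difference was -5.57 ± 1.38 (SE; edgeR, adjusted p = 0.266). With the block Krt13 fell by 5.54 ± 0.53 on the log2 scale (edgeR, adjusted p = 0.0159). That call was lost without untreated 01 (-5.15 ± 0.64, adjusted p = 0.164), untreated 02 (-5.51 ± 0.66, adjusted p = 0.163) or post-caerulein 03 (-5.33 ± 0.64, adjusted p = 0.0814), each by edgeR with the block. In the smaller block untreated 03 had 13 reads and post-caerulein 04 had 3. Without untreated 03 the fit with the group alone called Krt13, at -6.14 ± 0.64 (edgeR, adjusted p = 0.00381), beside 6.83% of all genes. That fit held only untreated 01 and 02, a close pair, in its untreated group, so its error may be too small.

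Krt15 counted 0.470, 0.654 and 3.09 CPM without caerulein, and 0.729, 0.666, 0.442 and 1.22 CPM after it, highest in the 2 libraries of the smaller block. Its log2 difference was -0.88 ± 0.68 (SE; edgeR, adjusted p = 0.803), and without untreated 03 it turned to 0.46 ± 0.46. Krt17 counted 0.446, 0.633 and 1.20 CPM without caerulein, and 0.701, 1.11, 1.41 and 1.03 CPM after it. Its groups overlapped, with a log2 difference of 0.48 ± 0.42 (SE; edgeR, adjusted p = 0.825). For Krt17 the log2 ratio of means was 0.99 for the larger block, against -0.22 for post-caerulein 04 over untreated 03. Krt14 had 2, 0 and 4 reads in the untreated libraries and 4, 0, 5 and 7 in the post-caerulein ones. The ratio of its summed reads, each divided by the summed scaled library sizes of its group, was 2.12. Its 95% exact binomial interval of 0.789 to 6.63 covers counting error only. Without Krt13, the squamous and basal keratins supplied 0.0207 ± 0.0166% (SD, n = 3) of the summed RPKM of the 10 genes without caerulein and 0.0171 ± 0.00518% (SD, n = 4) after it.

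Krt6a, Krt16 and Dsg3, also of stratified epithelia, were likewise highest in untreated 01 and 02. Krt6a, an inducible type II keratin, counted 17.5, 17.7 and 3.83 CPM without caerulein, and 3.47 to 7.46 CPM after it. Krt16, its usual type I partner, counted 3.22, 1.83 and 0.0890 CPM without caerulein, and 0.126 to 0.388 CPM after it. Dsg3, a desmosomal cadherin, counted 53.2, 46.8 and 1.74 CPM without caerulein, and 1.07 to 3.03 CPM after it. None of these 3 passed with the block (edgeR, adjusted p of 0.0943, 0.0904 and 0.141). Krt16 and Dsg3 were named after their values were seen, as were Pkp1, Dsc3, Krt4, Krt32 and Krt5, the basal partner of Krt14. Krt4 and Krt32, too low to be tested, were also highest in untreated 01 and 02. Krt4 counted 0.322, 0.380 and 0.0890 CPM without caerulein, and 0.0841 to 0.111 CPM after it. For Krt32 the values were 0.371, 0.253 and 0 CPM without caerulein, and 0 to 0.0843 CPM after it. Some other genes of the same lists did not share the split. Pkp1, a desmosomal plaque gene, counted 125, 112 and 183 CPM without caerulein, and 103, 107, 105 and 114 CPM after it, and the desmosomal cadherin gene Dsc3 reached at most 0.178 CPM. Both were highest in untreated 03. Summed over whole lists, the other keratins gave 84.1, 77.5 and 55.8 CPM in untreated 01 to 03. The list of keratin linkers and desmosomes gave 4609, 4477 and 5405 CPM there. For basal and squamous differentiation genes the sums were 4249, 4239 and 6963 CPM. Krt5 counted 0.817, 0.464 and 0.156 CPM without caerulein, and 0.729, 2.22, 1.66 and 0.273 CPM after it, with its highest values in post-caerulein 02 and 03. Trp63, the transcription factor that marks basal cells, had 0 reads in all 7 libraries.

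**Figure D4:**
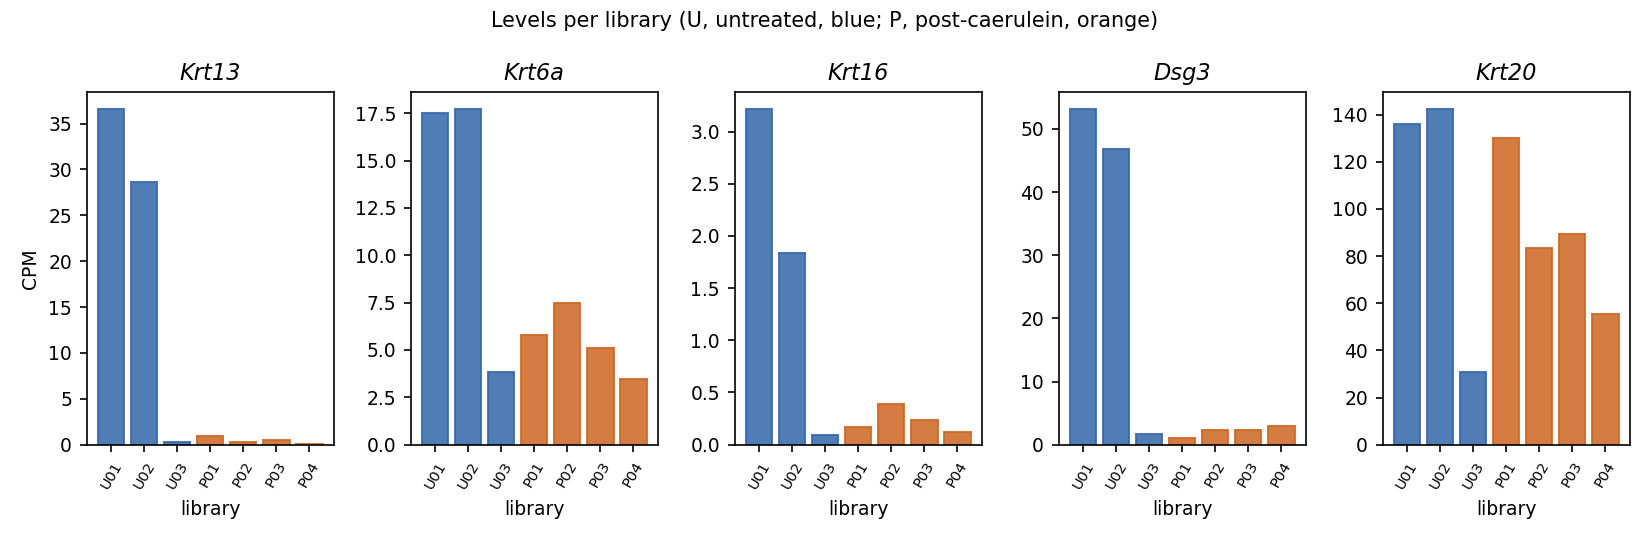
CPM in each library for Krt13, Krt6a, Krt16, Dsg3 and Krt20, on linear axes of their own (U, untreated; P, post-caerulein). The first 4 are highest in untreated 01 and 02 and low in untreated 03 and all post-caerulein libraries, whereas Krt20 is also high in post-caerulein 01.

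Of the other keratins, 43 of 44 listed were found and 11 were tested, and none passed with or without the block. Their median log2 difference without the block was -0.47, with 10 of 11 negative. Over all genes the median was -0.02, with 8698 of 16438 negative. Krt88, a keratin not on the list, was also tested, with a log2 difference of -0.63 (edgeR, adjusted p = 0.897). It did not pass with the block either (edgeR, adjusted p = 0.849). The other keratins with a mean of at least 1 CPM were Krt6a, Krt80, Krt87 and Krt10. Krt80, a type II keratin of differentiating epithelia, averaged 45.2 ± 12.9 CPM (SD, n = 3) without caerulein, and 38.4 ± 5.20 CPM (SD, n = 4) after it. Krt10, of suprabasal epidermis, averaged 1.06 ± 0.307 and 1.01 ± 0.361 CPM.

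Of 19 tested genes for keratin linkers and desmosome proteins, which tie keratin filaments to cell junctions, 1 was called lower with the block (0.876% of all genes were) and 0 without it, with a median log2 difference of -0.06. The gene called was Dsc2, a desmosomal cadherin, with 129, 114 and 161 CPM without caerulein, and 60.5, 69.6, 61.9 and 113 CPM after it. It fell by 0.81 ± 0.11 on the log2 scale (edgeR with block, adjusted p = 0.0278), and the groups did not overlap. The plakin genes Ppl, Plec and Dsp and the catenin gene Jup had the highest counts of the list, and none of the 4 passed. Ppl averaged 696 ± 274 CPM (SD, n = 3) without caerulein, and 821 ± 116 CPM (SD, n = 4) after it. For Jup the means were 491 ± 17.7 and 459 ± 60.9 CPM.

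Of 9 tested genes for other intermediate filaments, 0 were called with or without the block. Lmna, a nuclear lamin gene, averaged 407 ± 11.3 CPM (SD, n = 3) without caerulein, and 408 ± 68.9 CPM (SD, n = 4) after it. Vim, the filament gene of mesenchymal cells, reached at most 1.33 CPM, in untreated 03.

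Of 18 tested genes of basal and squamous differentiation, 2 were called lower with the block (0.876% of all genes were) and 0 without it, at a median log2 difference of -0.06. They were Anxa8, an annexin gene, and Aqp3, the gene of a water and glycerol channel. Anxa8 counted 187, 185 and 205 CPM without caerulein, and 90.9, 76.5, 67.8 and 109 CPM after it, and fell by 1.15 ± 0.12 on the log2 scale (edgeR with block, adjusted p = 0.0205). Its groups did not overlap, and its highest library was untreated 03, where Krt13 was low. Aqp3 counted 3.42, 1.94 and 0.445 CPM without caerulein, and 0.126 to 0.449 CPM after it, and fell by 2.87 ± 0.42 (edgeR with block, adjusted p = 0.0310). The integrin genes Itga3, Itgb4 and Itga6 and the matrix gene Ecm1 had the highest counts of the list and did not pass. Each of them was highest in untreated 03.

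The 21 ductal identity genes each reached at least 1 CPM in some library, and their sum ran from 6781 to 11729 CPM. All were tested, and 2 were called higher and 2 lower with the block (0.651% and 0.876% of all genes were) and 0 without it, at a median log2 difference of 0.07. Bicc1, an RNA-binding protein gene, rose by 1.42 ± 0.22 on the log2 scale (edgeR with block, adjusted p = 0.0364), and Ambp, the gene of a secreted protein precursor, rose by 2.63 ± 0.43 (edgeR with block, adjusted p = 0.0422). The surface protein gene Prom1 fell by 1.22 ± 0.10 (edgeR with block, adjusted p = 0.00840) and the secreted protein gene Wfdc2 fell by 1.18 ± 0.17 (edgeR with block, adjusted p = 0.0304). Cdh1, the epithelial cadherin gene, averaged 1793 ± 196 CPM (SD, n = 3) without caerulein, and 2306 ± 347 CPM (SD, n = 4) after it. Every post-caerulein library had more Cdh1 than any untreated one, but Cdh1 did not pass (edgeR, adjusted p = 0.536).

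Of 12 tested epithelial transcription factor genes, 1 was called lower with the block, Elf3 (0.876% of all genes were), and 0 without it. The list had a median log2 difference of -0.45, with 10 of 12 negative, beside 8698 of 16438 over all genes. Elf3, an Ets factor of epithelia, counted 511, 510.3 and 191 CPM without caerulein, and 207, 137, 148 and 82.9 CPM after it, and fell by 1.51 ± 0.16 on the log2 scale (edgeR with block, adjusted p = 0.0205). Within each block the post-caerulein libraries were lower, while over all 7 the groups overlapped. Klf5, a factor of proliferating epithelia, averaged 380.3 ± 70.5 CPM (SD, n = 3) without caerulein, and 346 ± 82.0 CPM (SD, n = 4) after it, and did not pass.

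**Figure D5:**
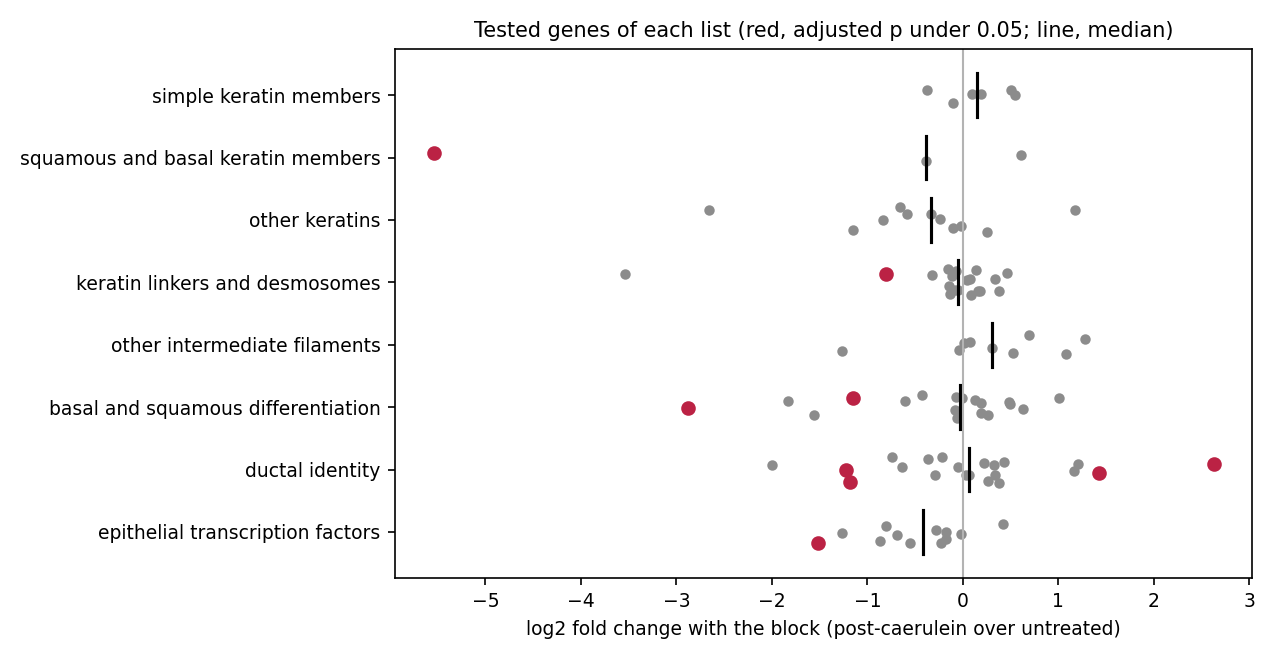
Log2 fold change with the block for each tested gene of 8 lists (grey, not called; red, adjusted p under 0.05; line, median). Krt13 is the lowest point, and the medians of the 8 lists lie between -0.41 and 0.31.

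The genes whose profile over the 7 libraries was most like that of Krt13 were Cyp2f2, Slc2a6, Pdlim4, Wfdc1 and Kit, compared by the root mean square difference of centred log2 CPM over 11643 genes. The difference was 0.520 for Cyp2f2 and 0.849 for Kit. Kit, a receptor tyrosine kinase gene, counted 78.3, 74.1 and 0.645 CPM without caerulein, and 1.85, 3.25, 3.94 and 0.357 CPM after it. Krt6a was the closest keratin that could be compared, at 2.20, but ranked only 164th of all genes compared. For Krt19 the closest genes were Zzef1, Cycs, Ggact, Dag1 and Psme2, with differences of 0.0708 to 0.102. Krt8 was the closest keratin, at 0.223, but ranked only 865th.

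Markers of other cell types were low, with exceptions. Of 9 mesothelial markers 6 stayed under 1 CPM in every library, and Wt1 and Upk3b reached at most 0.111 and 0.250 CPM. Msln, which duct-derived cells can also express, counted 1468, 1716 and 5013 CPM without caerulein, and 2324, 2255, 2245 and 4219 CPM after it, highest in the libraries where Krt20 was lowest. The 9 fibroblast and stellate markers summed to 0.169 to 21.3 CPM without caerulein, and 3.03 to 7.35 CPM after it, the highest value being that of untreated 03 and the lowest 2 those of untreated 01 and 02. Acinar markers (10 genes) summed to 0.619 to 0.845 and 1.80 to 12.1 CPM. Of these 2 were tested, and Ctrb1 was called higher with the block (0.651% of all genes were). Islet markers (7) summed to 0.0248 to 0.400 and 0.462 to 4.51 CPM and endothelial markers (5) to 1.31 to 2.83 and 0.449 to 1.32 CPM. Leukocyte markers (7) summed to 20.6 to 98.0 and 11.8 to 35.4 CPM, almost all of it Cd68, while Ptprc reached at most 0.105 CPM. The part of these values in the keratin differences was not tested.

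The authors' deposited table lists 7 of the 10 keratins. In the authors' deposited table Krt23 has a log2 fold change of 0.56 and a false discovery rate of 0.00683, the one keratin of the 7 under 0.05, beside 7.88% of all genes listed there. The authors' deposited table gives Krt8 a log2 fold change of 0.52 and Krt7 one of -0.36, with false discovery rates of 0.251 and 0.310. Krt13, Krt14 and Krt15 are not among its genes.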

How the data were processed

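Polyadenylated RNA of 7 spheroid libraries (3 untreated, 4 post-caerulein) was sequenced. The table deposited by the authors holds unnormalised read counts of each gene with its exons. It was made with featureCounts (0.6.1) on GRCm38 (mm10), according to the submitters' processing notes. Neither aligner nor strandedness of counting is given in the sources used here, so a gene and its antisense partner may share reads. The authors' deposited edgeR (3.2.2) table holds log2 fold changes and log2 CPM, a likelihood ratio score and a p-value with false discovery rate, per the file headers. Symbols were matched by Ensembl identifier. Counts were filtered with filterByExpr (minimum count 10, total 15), TMM-normalised and fitted over all 16438 genes with edgeR 4.0.16 (robust quasi-likelihood test, two-sided, Benjamini-Hochberg, called at 0.05); standard errors are the log2 change divided by the root of the test's F. The same likelihood ratio procedure as in the deposited table, with the block term, gave its log2 fold changes to within 3.16e-08 and its 1023 calls, and 320 calls without that term. RPKM used the exon lengths of the count table, which equal those of the principal GENCODE M21 transcript for all 10 keratins. The keratins, the gene lists, the block and the alternatives were chosen with earlier results of these data known. Genes were named by a rule: the 10 keratins, other keratins of at least 1 CPM, up to 4 of each list by mean level with any called member, and the 5 closest profiles to Krt13 and Krt19. Other genes were named after their values were seen, apart from cell type markers and annotated overlaps or copies. The scripts were tested on simulated data. Alternatives used DESeq2 1.42.0, limma 3.58.1, other scalings, filters, thresholds and blocks, and libraries left out. R 4.3.3 and matplotlib 3.10.9 were used.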

Additional observations from a re-analysis of the deposited data

Results flagged for a closer look

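In the 4 post-caerulein libraries, 5 of 64 genes examined had 1 library far from the other 3, by a gap that takes up most of the range of the 4. Chance gives this for about 5% of groups if values are independent and normally distributed. CPM from few reads need not be. Krt87, a type II keratin, reached 14.4 CPM in post-caerulein 04, where the other 3 had 4.60 to 5.84. Ppl, the periplakin gene, was at 993 CPM in post-caerulein 01 against 739.9 to 782 CPM. Msln was at 4219 CPM in post-caerulein 04 against 2245 to 2324 CPM. Krt87 and Msln were also high in untreated 03, the other library of the smaller block, at 16.3 and 5013 CPM. Cpa1, an acinar enzyme gene, was at 1.11 CPM in post-caerulein 04 against 0 to 0.112 CPM. Cdh5, the endothelial cadherin gene, was at 0.294 CPM in post-caerulein 04 against 0.0555 to 0.0843 CPM. Of the 10 keratins none was set apart in this way.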

How the results depend on the processing

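The fit with the group alone called 0 keratins and 0 genes. Over all genes the count was 23 without the filter on low counts, 509 with DESeq2, 251 with the block of the deposited table and 2247 in the larger block alone, and from 0 to 1149 with 1 library left out (0 to 2267 with the block as well, where it was 0 without untreated 01 or untreated 02, 131 without post-caerulein 01, 29 without 02, 3 without 03 and 2086 without 04, and 2267 without untreated 03). Of the keratins, 2 were called by DESeq2 and in the larger block alone (Krt13 and Krt23), 1 with the block, 0 to 1 with 1 library left out, and 0 to 2 with the block and 1 library left out. The sign was kept in all alternatives run for Krt7, Krt8, Krt18, Krt23, Krt13 and Krt17. The single ratio of post-caerulein 04 over untreated 03 nevertheless had the opposite sign for Krt18 (-0.33) and Krt17 (-0.22). Krt20 turned to 0.0220 with limma-voom, 0.21 with the replicate block and 0.0869 with close pairs summed. It ranged from -0.62 to 0.10 with 1 library left out, and with the block as well it was 0.0415 without untreated 02, 0.0419 without post-caerulein 02 and 0.0157 without post-caerulein 03. Krt15 turned to 0.13 in the larger block alone and ranged from -1.28 to 0.46 (-0.66 to 0.12 with the block). Krt19 turned to -0.00513 without post-caerulein 01 (-0.00567 with the block) and ranged up to 0.32 without 02 (0.33 with the block). The cause of these turns was not tested. No label states that the replicate numbers pair the libraries. Deviations from the group means correlated at 0.37, 0.14 and -0.21 between same-numbered libraries, and at 0.56 between untreated 03 and post-caerulein 04. These deviations also carry the split between the blocks, so they cannot show whether the numbers pair. With the replicate block 0 keratins and 0 genes were called. Krt7 per kilobase, 523 RPKM, was 1363 with the shorter last exon, an alternative added after the data were seen. Depth limits Krt14, at or near the limit of 3 reads in every library.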

Other observations

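Krt87, a type II keratin outside the 10, was higher in the 2 libraries of the smaller block than in the other 5. It counted 3.34, 4.37 and 16.3 CPM in untreated 01 to 03, and post-caerulein 01 to 04 gave 4.60, 5.38, 5.84 and 14.4. Its log2 difference between the groups was -0.08 ± 0.64 (SE; edgeR, adjusted p = 0.988). Sox9, the transcription factor of duct cells, counted 10.9, 12.9 and 61.7 CPM without caerulein, and 51.7, 45.8, 37.1 and 39.4 CPM after it, so it was lowest in the 2 libraries where Krt13 was highest. Cftr, the chloride channel of duct cells, counted 39.1, 38.5 and 1.02 CPM without caerulein, and 4.74, 4.72, 4.76 and 4.67 CPM after it, so it was highest in those 2 libraries. Sox9 and Cftr were picked after their values were seen, and neither passed the test with or without the block.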
